A study of Mus musculus with 8 samples.

Results

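Endothelial cells line every blood vessel, and 10 genes that mark them were followed here across 8 mRNA sequencing libraries of whole mouse spine at E18.5, shortly before birth. The 10 genes were listed by symbol: Pecam1, Cdh5, Kdr, Flt1, Tek, Tie1, Emcn, Cldn5, Erg and Esam. All 10 were found among the 27179 genes of the count table, and all 10 passed the filter on low counts that left 18104 genes to test. The study deleted a stretch of DNA at Pax1, named Pax1-Enh in the labels, which its title ties to sex and to adolescent idiopathic scoliosis, and compared wild type (WT) with knockout (KO) embryos. There were 4 groups of 2 libraries each: male WT, male Pax1-Enh KO, female WT and female Pax1-Enh KO. The labels give no strain, zygosity or founder line, and they name no other allele and no treatment. They do not say whether the replicates were separate embryos, so the p-values measure only how far these libraries spread, which may be technical.

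Vessels grow and hold together through a small set of receptors and contacts. Vascular endothelial growth factors act on Kdr (VEGFR2), the main signalling receptor, and on Flt1 (VEGFR1), which binds the ligand strongly, signals weakly and also exists as a soluble decoy. Angiopoietins act on Tek (TIE2), whose sister receptor Tie1 modulates it. Cdh5 (VE-cadherin), Pecam1 (CD31), Esam and Cldn5 (claudin 5) form the contacts between neighbouring endothelial cells. Emcn (endomucin) is a sialomucin of capillaries and veins that is used to mark vessels in growing bone, and Erg is an ETS family transcription factor of the endothelium. Vessels invade the cartilage models of the vertebrae as these ossify, while the healthy inner disc stays almost free of them.

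ETS factors such as Erg bind sites built around the letters GGAA. Of the members, Tie1 had the knockout difference that varied most with sex, as given below, and Emcn had a pattern unlike the rest. The stretches before Tie1, Emcn and Erg itself are therefore shown. They come from RefSeq promoter windows on GRCm38.p6 (the mm10 build), end at the outermost annotated start of the gene, and run 5′ to 3′ on the gene's strand. Capitals mark GGAA or its reverse complement TTCC.
Tie1, chr4:118489850-118490099, minus strand: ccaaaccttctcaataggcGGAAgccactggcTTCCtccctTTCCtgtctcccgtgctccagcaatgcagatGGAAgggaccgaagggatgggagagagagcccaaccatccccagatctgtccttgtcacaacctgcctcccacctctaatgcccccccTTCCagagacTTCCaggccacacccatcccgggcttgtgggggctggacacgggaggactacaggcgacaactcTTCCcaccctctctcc
Erg, chr16:95586601-95586843, minus strand: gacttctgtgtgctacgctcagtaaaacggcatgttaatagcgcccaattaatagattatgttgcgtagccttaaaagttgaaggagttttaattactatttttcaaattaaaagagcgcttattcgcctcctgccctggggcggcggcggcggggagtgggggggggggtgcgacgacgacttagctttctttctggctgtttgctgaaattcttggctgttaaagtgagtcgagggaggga
Emcn, chr3:137340828-137341061, plus strand: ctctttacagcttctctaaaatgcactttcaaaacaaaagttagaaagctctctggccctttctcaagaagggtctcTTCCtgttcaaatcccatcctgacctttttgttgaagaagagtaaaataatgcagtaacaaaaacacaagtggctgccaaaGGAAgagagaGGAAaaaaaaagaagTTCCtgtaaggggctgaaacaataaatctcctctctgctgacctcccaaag

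Tie1 held 7 matches in this stretch, Emcn 4 and this start of Erg 0. Windows were matched for 7 members, 9 windows in all because Erg has 3 starts, and none was matched for Pecam1, Cdh5 or Esam. In the 250 bases before each start, both strands searched, the other counts of GGAA were 4 for Kdr, 4 for Flt1, 2 for Tek, 0 for Cldn5, and 4 and 2 for the remaining starts of Erg. Over all 32851 windows of the same length, 93.4% held at least 1 match and the median was 3, so a match by itself is common. The longer form AGGAAG, which contains GGAA, was in 29.5% of all windows and was found before Emcn and Flt1 (2 each), Tie1 (1) and the third start of Erg (1). TATAAA was in 12.4% of all windows and was found once before Flt1 and once before the second start of Erg. A match is a run of letters and not a measured binding site.

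Library totals ran from 35181518 to 67575728 counts, and all 4 KO libraries were deeper than all 4 WT libraries, so depth and genotype cannot be told apart by design. Levels are given in CPM, counts scaled to a common library size and corrected by edgeR's trimmed mean of M-values, and 3 counts correspond to 0.0392 to 0.0831 CPM. The lowest count of any member in any library was 439 (Erg in male WT 2), so counting error was small beside the spread between libraries. The share of counts from the mitochondrial genome was 18.3% and 20.9% for WT males, 5.55% and 7.27% for WT females, 4.56% and 15.6% for KO males, and 13.6% and 4.66% for KO females. In bulk tissue, fewer endothelial cells and less RNA of these genes per cell cannot be told apart.

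In WT spines the junction genes had the highest levels per kilobase of exon and Flt1 the lowest. On the scale of CPM per kilobase of annotated exon (mean ± SD over the 4 WT libraries of both sexes), Cldn5 stood at 30.5 ± 10.003, Cdh5 at 20.1 ± 12.4, Pecam1 at 16.7 ± 7.90 and Esam at 12.2 ± 5.57. The receptors followed, with Tie1 at 9.70 ± 5.53, Tek at 6.27 ± 1.09 and Kdr at 5.97 ± 3.22. Emcn stood at 5.96 ± 1.26, Erg at 4.34 ± 1.34 and Flt1 at 1.86 ± 0.765. From Cldn5 down to Emcn, each difference between neighbours in this order was smaller than the larger of their SDs, whereas Erg was below Emcn by 1.62 and Flt1 below Erg by 2.48, both more than the larger SD. Within libraries Erg exceeded Flt1 in 8 of 8, Cldn5 exceeded Cdh5 in 7 of 8, and Kdr exceeded Emcn in 4 of 8. The exon length used for Flt1, 13504 bases over all isoforms, is long beside its longest transcript of 6895 bases, and per kilobase of the longest transcript its mean over 8 libraries was 3.68 in place of 1.88. For Pecam1 the same exchange gave 31.1 in place of 17.2.

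**Figure D1:**
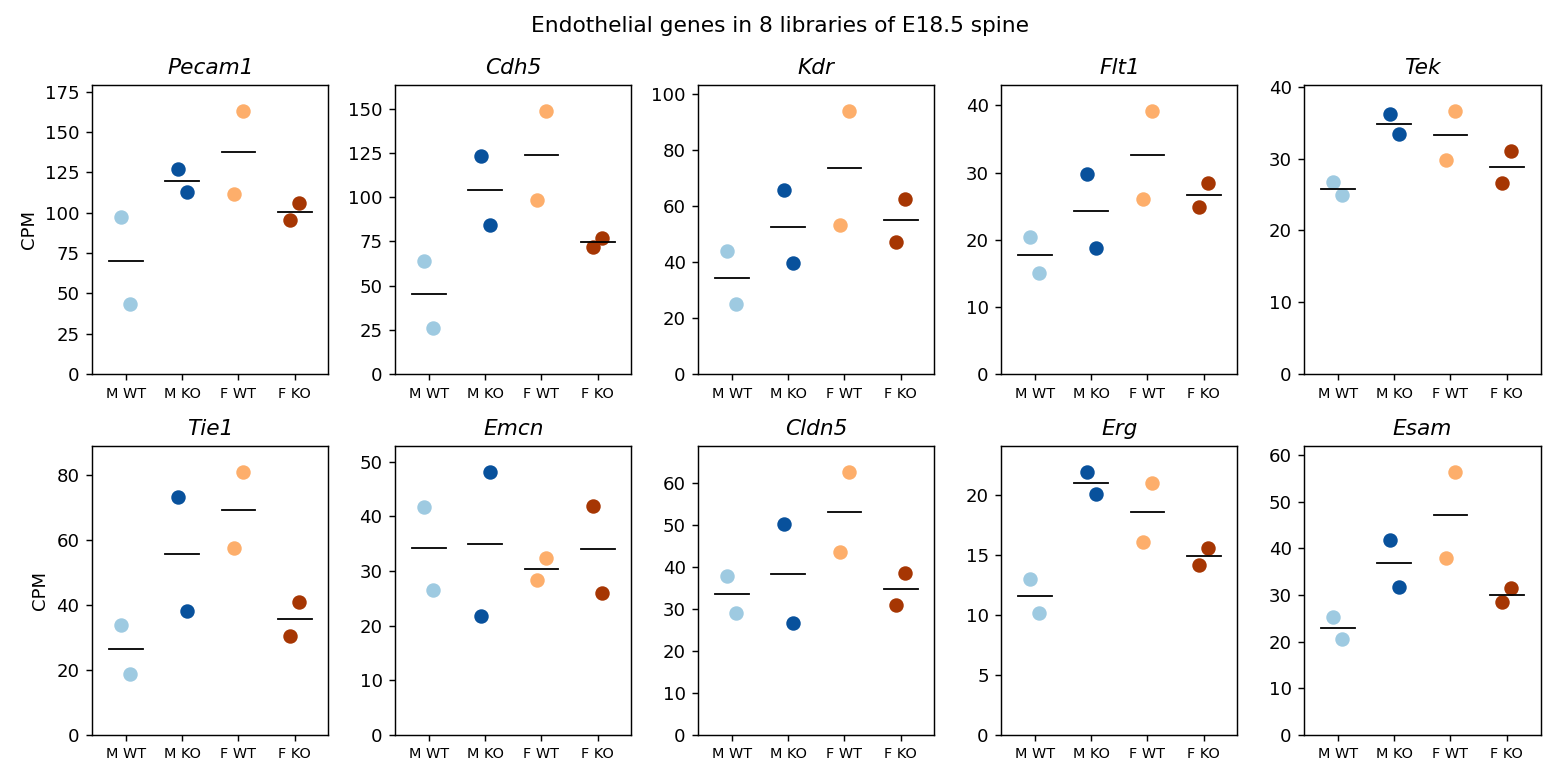
Level of each endothelial gene in CPM (y axis, from 0) in male WT, male KO, female WT and female KO spines (x axis; M, male; F, female). Points are the 2 libraries of a group and lines their mean. Except for Emcn, the female WT points lie above the male WT points, and for Cdh5 the 4 group means are 45.0, 104, 124 and 74.5 CPM from left to right.

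The receptors for vascular endothelial growth factors were measured first. Kdr (Entrez 16542, chr5:75932827-75979072) was at 43.9 and 24.8 CPM for WT males, 65.6 and 39.6 for KO males, 53.1 and 93.7 for WT females, and 47.1 and 62.6 for KO females. The KO range overlapped the WT range in both sexes, and the highest and lowest values were both from WT. Its log2 fold change, KO minus WT, was 0.61 in males (SE 0.39, edgeR adjusted p = 0.466) and -0.42 in females (SE 0.39, adjusted p = 0.683). Flt1 (Entrez 14254, chr5:147561604-147726438) was at 20.5 and 15.1 CPM for WT males, 29.9 and 18.8 for KO males, 26.1 and 39.1 for WT females, and 24.9 and 28.5 for KO females. Again the genotypes overlapped in each sex. The log2 value, KO minus WT, was 0.46 in males (SE 0.31, edgeR adjusted p = 0.489) and -0.29 in females (SE 0.31, adjusted p = 0.719). The counts do not separate its membrane-bound from its soluble form. Without male KO 1 the male values were 0.21 for Kdr and 0.09 for Flt1, and with the mitochondrial share as a covariate they were 0.03 and 0.01.

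The angiopoietin receptor Tek was the steadiest member and its sister receptor Tie1 one of the most variable. Tek (Entrez 21687, chr4:94739086-94874976) was at 26.7 and 24.9 CPM for WT males, 36.2 and 33.4 for KO males, 29.9 and 36.6 for WT females, and 26.6 and 31.1 for KO females. Both male KO libraries were above both male WT libraries, while the female groups overlapped. Its log2 fold changes were 0.43 in males (SE 0.21, edgeR adjusted p = 0.374) and -0.20 in females (SE 0.21, adjusted p = 0.713), and over the 8 libraries it spanned 0.55 on the log2 scale. Tie1 (Entrez 21846, chr4:118471191-118489849) was at 33.8 and 18.8 CPM for WT males, 73.2 and 38.0 for KO males, 57.3 and 80.8 for WT females, and 30.3 and 41.0 for KO females. Male KO was above male WT and female KO below female WT, with no overlap in either sex, over a span of 2.10 log2 units. The fitted log2 values, KO minus WT, were 1.08 in males (SE 0.40, edgeR adjusted p = 0.292) and -0.95 in females (SE 0.39, adjusted p = 0.535). Without male KO 1 the male value was 0.53, and with the mitochondrial share as a covariate it was 0.32.

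Of the adhesion genes, Cdh5 differed most. Cdh5 (Entrez 12562, chr8:104101613-104144504) was at 64.0 and 26.0 CPM for WT males, 123 and 84.5 for KO males, 98.7 and 149 for WT females, and 72.1 and 77.0 for KO females. The genotypes did not overlap in either sex, and male WT 2 was the lowest of the 8 libraries. Its log2 fold changes were 1.21 in males (SE 0.42, edgeR adjusted p = 0.282) and -0.73 in females (SE 0.41, adjusted p = 0.560), and leaving out 1 library moved the male value between 0.70 (without male WT 2) and 2.00 (without male WT 1). Pecam1 (Entrez 18613, chr11:106654213-106715281), which platelets and some leukocytes also carry, was at 97.2 and 43.2 CPM for WT males, 127 and 113 for KO males, 112 and 163 for WT females, and 95.2 and 106 for KO females. Its genotypes were also apart in both sexes. The log2 fold changes were 0.77 in males (SE 0.37, edgeR adjusted p = 0.365) and -0.45 in females (SE 0.37, adjusted p = 0.654). The male value ran from 0.31 (without male WT 2) to 1.48 (without male WT 1), and the female value was -0.16 without female WT 2.

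Esam, an immunoglobulin-type adhesion molecule of endothelium and platelets, followed the same order of groups with less spread. Esam (Entrez 69524, chr9:37528089-37538319) was at 25.3 and 20.6 CPM for WT males, 41.8 and 31.7 for KO males, 37.9 and 56.4 for WT females, and 28.5 and 31.5 for KO females. Neither sex showed overlap between the genotypes. KO minus WT, the log2 value was 0.68 in males (SE 0.27, edgeR adjusted p = 0.309) and -0.65 in females (SE 0.27, adjusted p = 0.534). Cldn5 (Entrez 12741, chr16:18776847-18778262), the tight junction protein of the blood-brain and blood-spinal cord barrier, was at 37.9 and 29.0 CPM for WT males, 50.1 and 26.5 for KO males, 43.4 and 62.5 for WT females, and 30.8 and 38.6 for KO females. Here the genotypes were apart only in females, since male KO 2 was the lowest of all 8 libraries. Its log2 fold changes were 0.20 in males (SE 0.34, edgeR adjusted p = 0.795) and -0.61 in females (SE 0.34, adjusted p = 0.560), and the male value was -0.34 without male KO 1.

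Erg, which cartilage cells of joints also express, varied less. Erg (Entrez 13876, chr16:95359169-95586600) was at 13.0 and 10.1 CPM for WT males, 21.9 and 20.1 for KO males, 16.1 and 21.0 for WT females, and 14.2 and 15.6 for KO females. The genotypes were apart in both sexes, and Erg had the smallest p of the members in males. Beside it, 7 cartilage genes summed to 8875 and 5182 CPM for WT males, 26753 and 11629 for KO males, 11296 and 5714 for WT females, and 10504 and 18092 for KO females, and their part in the Erg values was not tested. On the log2 scale KO minus WT was 0.86 in males (SE 0.24, edgeR adjusted p = 0.245) and -0.32 in females (SE 0.24, adjusted p = 0.626). Emcn (Entrez 59308, chr3:137341062-137431069) was at 41.8 and 26.5 CPM for WT males, 21.7 and 48.2 for KO males, 28.3 and 32.4 for WT females, and 42.0 and 25.9 for KO females. Its widest gap was between the 2 male KO libraries, which were the lowest and the highest of the 8, and every pair of groups overlapped. The log2 fold changes were 0.03 in males (SE 0.41, edgeR adjusted p = 0.973) and 0.16 in females (SE 0.41, adjusted p = 0.883).

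In males, then, the members had higher means in KO than in WT spines without a single call. All 10 log2 fold changes were above 0, from 0.03 (Emcn) to 1.21 (Cdh5), with a median of 0.65 beside -0.06 over all tested genes, of which 45.4% were above and 54.6% below 0. The number past an adjusted p of 0.05 was 0 of 10 in edgeR's quasi-likelihood test with Benjamini-Hochberg adjustment over 18104 genes, beside 0% of all genes. At an unadjusted p under 0.05 there were 4 (Cdh5, Tie1, Erg and Esam), beside 14.8% of all genes. DESeq2 called 0 (2.66% of all genes) and limma voom called 0 (0% of all genes). In 6 members both KO libraries were above both WT libraries (Pecam1, Cdh5, Tek, Tie1, Erg and Esam), beside 19.7% of all genes higher without overlap, and in 0 members were both below, beside 23.9% of all genes. With 95% confidence the fold lay between 1.19 and 4.47 for Cdh5, 1.13 and 3.95 for Tie1, 1.25 and 2.64 for Erg, and 0.539 and 1.94 for Emcn. The median of the members was 0.35 without male WT 2, and 0.37 with the mitochondrial share as a covariate. That share was larger in both male WT libraries (18.3% and 20.9%) than in both male KO libraries (4.56% and 15.6%). Share and genotype therefore cannot be fully told apart in males. Not all 10 stayed above 0: Emcn was -0.65 without male KO 2, -0.25 without male WT 2 and -0.04 in limma voom. With the covariate Emcn rose to 0.69, while Cldn5 was -0.46. Most members shared their lowest and highest libraries, as given below, so their signs here and in the next comparisons are not separate results.

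In females the signs were mostly the other way, again without a call. Of the 10 members 9 had log2 fold changes below 0, from -0.95 (Tie1) to -0.20 (Tek), and Emcn was above 0. The median was -0.43 beside 0.03 over all tested genes, of which 47.4% were below and 52.6% above 0. None of the 10 passed in edgeR after Benjamini-Hochberg adjustment (0% of all genes), 2 had an unadjusted p under 0.05 (Tie1 and Esam, beside 9.27% of all genes), DESeq2 called 0 (0.795% of all genes) and limma voom called 0 (0% of all genes). Both KO libraries were below both WT libraries in 6 members (Pecam1, Cdh5, Tie1, Cldn5, Erg and Esam), beside 26.2% of all genes lower without overlap, and in 0 members were both above, beside 25.9% of all genes. Confidence limits (95%) of the fold were 0.277 to 0.962 for Tie1, 0.418 to 0.972 for Esam, 0.313 to 1.16 for Cdh5 and 0.619 to 1.22 for Tek. The median was -0.14 without female WT 2, where Kdr (0.04) and Flt1 (0.03) turned positive, and -0.74 without female WT 1.

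**Figure D2:**
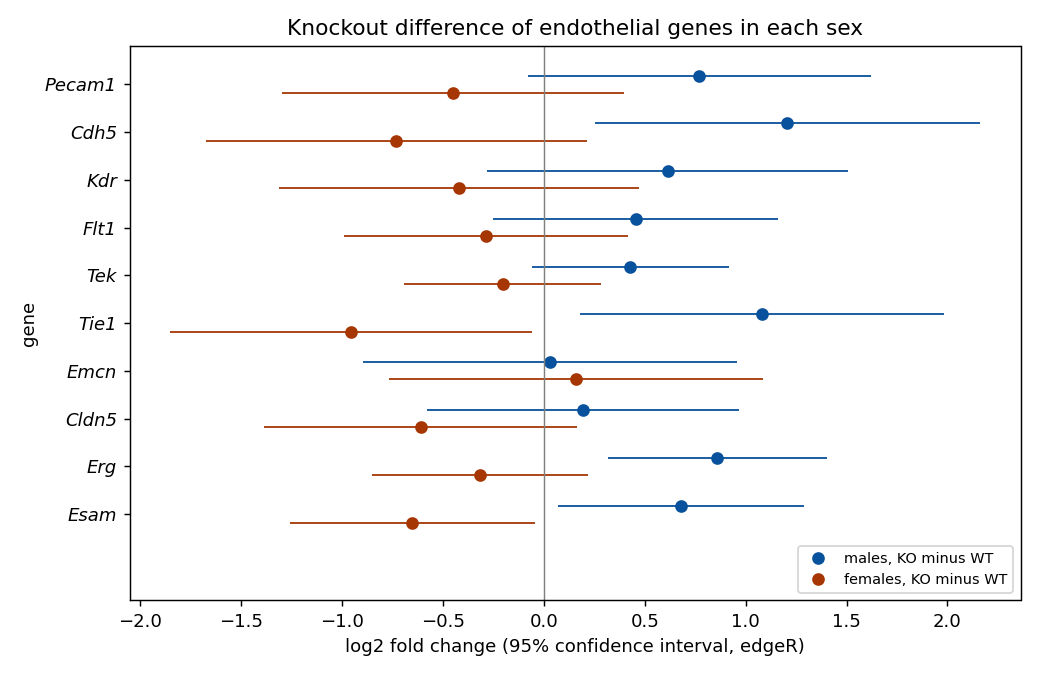
Log2 fold change of each endothelial gene, KO minus WT (x axis), in males and in females, with 95% confidence intervals from edgeR as lines. The 10 male values run from 0.03 to 1.21 and the female values from -0.95 to 0.16, and most intervals include 0.

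The design also asks whether the knockout difference depends on sex. The female minus male difference of the log2 fold changes was below 0 for 9 of 10 members, from -2.03 (Tie1, SE 0.56) and -1.94 (Cdh5, SE 0.59) to -0.63 (Tek, SE 0.30), while Emcn had 0.13 (SE 0.58). The median was -1.11 beside 0.03 over all tested genes, of which 48.3% were below and 51.7% above 0. No member passed in edgeR (0 of 10, smallest adjusted p = 0.243 for Tie1, Erg and Esam, beside 0% of all genes). At an unadjusted p under 0.05 there were 5 (Pecam1, Cdh5, Tie1, Erg and Esam), beside 16.7% of all genes. DESeq2 called Tie1 (-2.09, adjusted p = 0.0273) and Cdh5 (-1.99, adjusted p = 0.0443), beside 2% of all genes, and limma voom called 0 (0% of all genes). The same 5 members were higher in both male KO libraries than in both male WT libraries and lower in both female KO libraries than in both female WT libraries, which held for 6.09% of all genes. Without male WT 2 the median was -0.72. With the mitochondrial share as a covariate Tie1 had -1.10, Kdr -0.31 and Flt1 -0.19, and Pecam1 ran from -1.92 (without male WT 1) to -0.76 (without male WT 2).

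The same WT libraries also set the sex comparison at baseline, so it is not independent of the knockout comparisons. Endothelial genes had higher means in female than in male WT spines: 9 of 10 log2 differences, female minus male, were above 0, with a median of 0.92 beside -0.02 over all tested genes, of which 48.8% were above and 51.2% below 0. Cdh5 had 1.46 (SE 0.42), Tie1 1.39 (SE 0.40), Kdr 1.09 (SE 0.40), Esam 1.04 (SE 0.27) and Pecam1 0.97 (SE 0.38), and Emcn had -0.17 (SE 0.41). In edgeR 0 members passed (smallest adjusted p = 0.106 for Esam, beside 0.00552% of all genes), and 7 had an unadjusted p under 0.05, beside 27.3% of all genes. DESeq2 called 4 as higher in females (Cdh5, Kdr, Tie1 and Esam), beside 11.6% of all genes in either direction, and limma voom called 0 (0.011% of all genes). In 9 members both female WT libraries were above both male WT libraries, beside 31% of all genes, and in 0 members were both below, beside 35.1% of all genes. Between the KO groups the order was not the same: no member was higher in both female KO libraries than in both male KO libraries (14.9% of all genes), and 5 were lower in both (Pecam1, Cdh5, Tek, Erg and Esam, beside 13.7% of all genes), a comparison that was not tested. The WT median was 0.60 without male WT 2 and 0.48 with the mitochondrial share as a covariate. That share was 18.3% and 20.9% in WT males and 5.55% and 7.27% in WT females. Share and sex therefore cannot be told apart in WT. Without male KO 1 or male KO 2, Tie1 stayed at 1.40 and Esam at 1.04. In the same fits edgeR calls rose over the whole table, these genes among them.

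Over both sexes, with 4 libraries per genotype and sex as a term, the opposite signs left little difference. The log2 fold changes ran from -0.21 (Cldn5, SE 0.27) to 0.27 (Erg, SE 0.26), 9 of 10 above 0, with a median of 0.10 beside -0.01 over all tested genes, of which 48.9% were above and 51.1% below 0. No member passed in edgeR (smallest adjusted p = 0.925, beside 0% of all genes), 0 had an unadjusted p under 0.05 (6.83% of all genes), DESeq2 called 0 (0.779% of all genes) and limma voom called 0 (0% of all genes). In no member were the 4 KO libraries all above or all below the 4 WT libraries, which held for 1.68% and 1.63% of all genes. Fold limits at 95% confidence were 0.808 to 1.45 for Tek, 0.803 to 1.81 for Erg and 0.515 to 2.12 for Tie1. The sign of the median rested on single libraries: it was -0.16 without male WT 2, -0.09 without male KO 1 and -0.07 with the mitochondrial share as a covariate, and 0.32, 0.26 and 0.20 without female WT 2, female KO 1 and female KO 2.

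Most members shared their lowest and highest libraries. Relative to its own mean over the 8 libraries, the level of 8 of 10 members was lowest in male WT 2 and that of 8 of 10 was highest in female WT 2. The mean deviation of the 10 members was -0.16 and -0.80 log2 units for WT males, 0.13 and 0.63 for WT females, 0.33 and -0.01 for KO males, and -0.13 and 0.02 for KO females. The 2 extremes were thus both WT libraries, and the 4 KO libraries lay between them. Over all tested genes the median deviation of a library ran only from -0.02 to 0.04. The members spanned a median of 1.41 log2 units over the 8 libraries, beside 1.04 for the 15162 tested genes of at least 1 CPM on average.

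**Figure D3:**
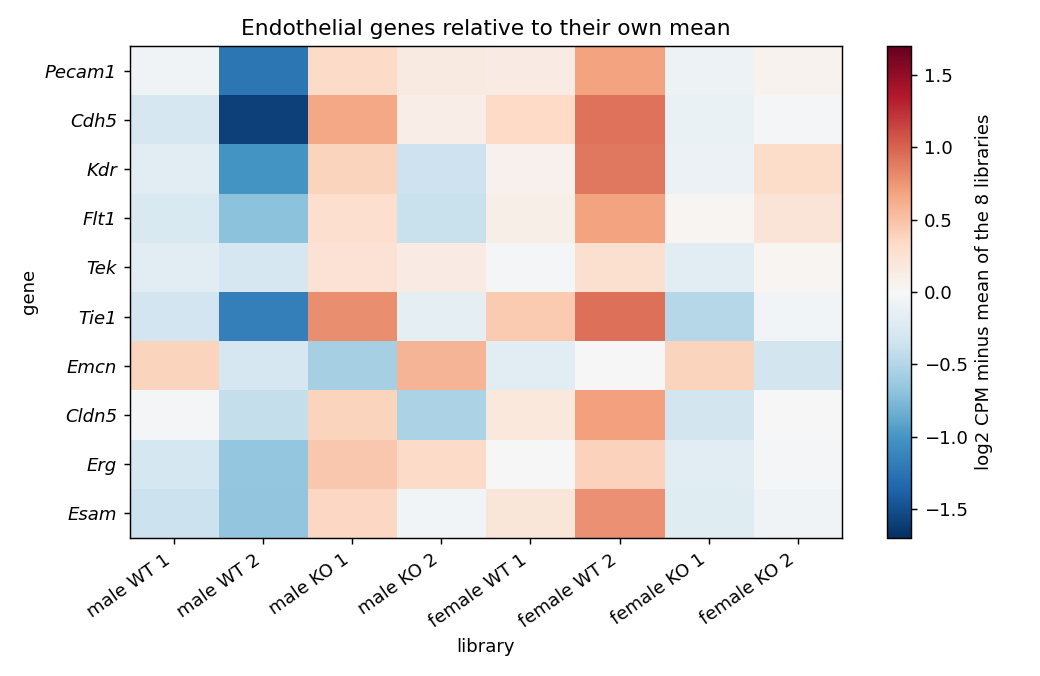
Log2 CPM of each endothelial gene minus its own mean over the 8 libraries (colour, in log2 units; blue lower, red higher), with genes in rows and libraries in columns. The male WT 2 column is the lowest for 8 genes and the female WT 2 column the highest for 8 genes, while Emcn is high in male KO 2 and low in male KO 1.

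Likeness was measured as the root mean square difference, over the 8 libraries, between a member's deviations and the mean deviations of the other members. Esam was nearest (0.13 log2 units), followed by Flt1 (0.18), Pecam1 and Erg (both 0.19), and Emcn was farthest (0.63). Among 14964 other named genes of at least 1 CPM on average, whose median distance to the members' mean was 0.47, 0.207% were nearer than Esam and 72.0% were nearer than Emcn. Cdh5 (0.37) and Tie1 (0.33) were also less near than the other members, with 31.0% and 23.1% of those genes nearer, and they spanned 2.51 and 2.10 log2 units over the libraries. The 8 nearest genes outside the list were Entpd2, Enpp3, Myo1c, She, Mmrn2, Nelfcd, Pde2a and Gprc5b, at distances of 0.0785 (Entpd2) to 0.0933 (Gprc5b). Mmrn2, a matrix glycoprotein of endothelial cells at 17.0 CPM on average, had log2 fold changes of 0.73 in males and -0.48 in females. Entpd2, an ectonucleotidase at 23.3 CPM, had 0.66 and -0.37. These 8 genes were chosen by their pattern over the same libraries. Fold changes near those of the members follow from that choice and are not separate evidence. None of these 8 passed in edgeR in males (adjusted p from 0.298 to 0.481), in females (0.553 to 0.643) or for the difference between the sexes (0.264 to 0.297). The likeness is a description over 8 libraries, which differed in depth and in the other measures given next.

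Other measures moved with the endothelial level across libraries, and their part in it was not tested beyond the covariate and the left-out libraries given here. The mitochondrial share was 13.6% or more in the 4 libraries with the lowest mean deviations (male WT 1 and 2, male KO 2 and female KO 1) and 7.27% or less in the others. This division was narrow, with mean deviations of -0.01 for male KO 2 and 0.02 for female KO 2. By the median deviation of the members the order of these 2 libraries was reversed, at 0.03 and -0.01. Summed levels of 7 adipocyte genes were 1143 and 163 CPM for WT males, 315 and 2684 for WT females, and between 35.7 and 74.8 in the KO libraries. Female WT 2 was thus highest both in adipocyte genes and in endothelial genes, while male WT 1, the next highest in adipocyte genes, was below the mean in endothelial genes. Without these 2 libraries the median of the members was 0.998 in males and -0.14 in females.

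Muscle and cartilage genes also had higher sums in male KO. The 8 skeletal muscle genes summed to 17137 and 8301 CPM for WT males, 25177 and 22465 for KO males, 11899 and 17610 for WT females, and 17318 and 15840 for KO females, and 8 of 8 had log2 fold changes above 0 in males (median 0.78) and 6 of 8 in females (median 0.60). The 7 cartilage genes, whose sums stand beside Erg, were above 0 in 7 of 7 in males (median 1.03) and 6 of 7 in females (median 0.75), so both lists lay above 0 in females too, where 9 of 10 endothelial genes lay below. Male WT 2 was the lowest library in the muscle sum, the cartilage sum and the endothelial sum. The part of these lists in the endothelial values was not tested.

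Blood cells share some of these markers and were measured beside them. Megakaryocyte genes, 7 in the list with Gp6 at 0 in some libraries, summed to 35.7 to 45.1 CPM for WT males, 41.1 to 56.4 for KO males, 33.6 to 41.0 for WT females and 27.5 to 37.0 for KO females. Of 6 megakaryocyte genes tested, 5 had log2 fold changes above 0 in males (median 0.43) and 4 below 0 in females (median -0.27). The defining macrophage genes (7) summed to 259 to 331 CPM for WT males, 353 to 380 for KO males, 282 to 328 for WT females and 238 to 320 for KO females. Of these 7 genes, 6 were above 0 in males (median 0.41) and 6 below 0 in females (median -0.25). Most endothelial genes had these same signs. The neuron genes (6), by contrast, were highest in male WT, at 1917 to 2395 CPM, and stood at 1340 to 1473 for KO males, 1153 to 1429 for WT females and 1747 to 1871 for KO females. All 6 were below 0 in males (median -0.69) and above 0 in females (median 0.64). Lung genes (5, of which Sftpa1, Sftpd and Scgb1a1 were at 0 in some libraries) were at 28.1 and 4.80 CPM for WT males and at most 3.80 elsewhere, and liver genes (5) at 850 to 1012 CPM for WT males, 870 and 78.2 for KO males and at most 122 in females. The part of these in the endothelial values was not tested.

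Emcn was set beside the osteoblast genes after its values were seen, since it marks vessels of growing bone. The 7 osteoblast genes summed to 1159 and 1136 CPM for WT males, 729 and 1294 for KO males, 720 and 504 for WT females, and 1357 and 986 for KO females. The 3 libraries highest in Emcn (male KO 2, female KO 1 and male WT 1) were also the 3 highest in this sum. In the other 5 the orders differed: of these, female WT 2 was lowest in the sum and highest in Emcn, male WT 2 was highest in the sum but below both female WT libraries in Emcn, and male KO 1 was lowest in Emcn but above both female WT libraries in the sum.

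**Figure D4:**
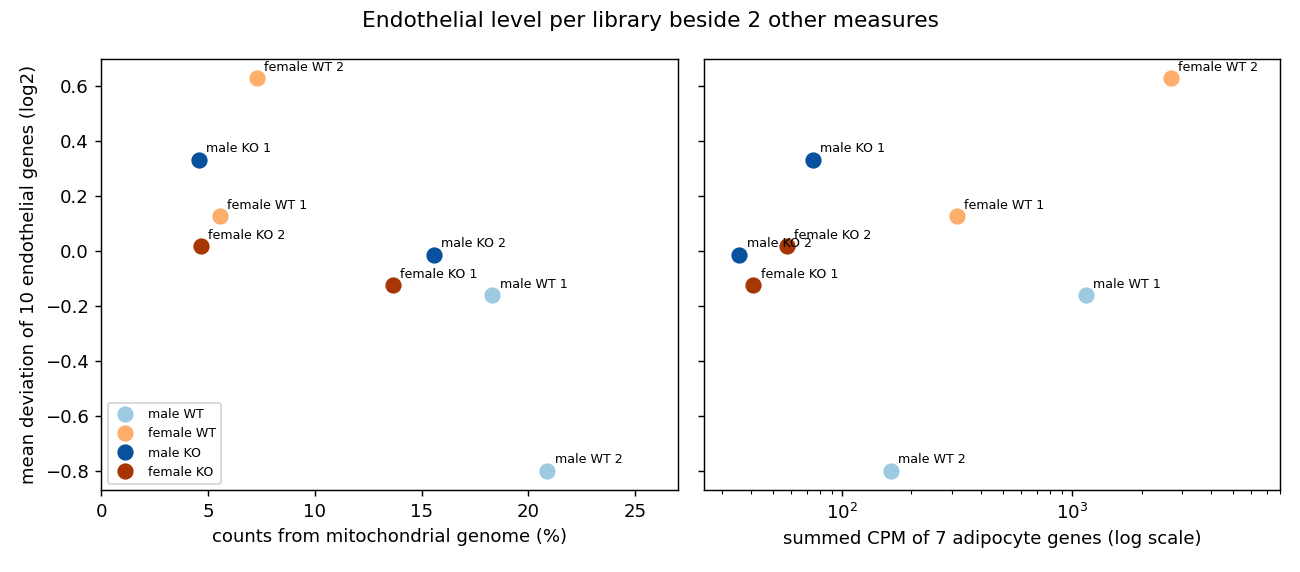
Mean deviation of the 10 endothelial genes per library (y axis, log2 units) against the share of counts from the mitochondrial genome (left, %) and the summed CPM of 7 adipocyte genes (right, log scale). Each point is 1 library. The 4 libraries with 13.6% or more have the 4 lowest deviations, though male KO 2 (-0.01) and female KO 2 (0.02) lie close together. Female WT 2 is highest in both quantities on the right.

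The wider set of vascular genes was taken from lists chosen with earlier results of these data known, and 0 of their genes passed in edgeR in any of the 5 comparisons. Counts and medians cover all tested genes of a list. The genes whose values are given, here and in the next paragraphs, had the smallest p in their list for the difference between the sexes. Opposite signs in males and females are favoured by that choice and are not separate evidence. Of 20 other pan-endothelial genes 15 were above 0 in males and 17 below 0 in females, with medians of 0.46 and -0.40. Mcam, an adhesion molecule of endothelium and pericytes, was at 72.1 and 47.7 CPM for WT males, 117 and 99.1 for KO males, 101 and 116 for WT females, and 77.0 and 94.8 for KO females. Rasip1, a regulator of vessel lumen formation, had a log2 fold change of 0.71 with an SE of 0.44 in males and one of -1.23 with the same SE in females. For both genes the difference between the sexes had an adjusted p of 0.255 in edgeR.

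Endothelial transcription factors leaned below 0 in females (10 of 11 tested, median -0.37) and were split in males (6 above and 5 below 0, median 0.06). Klf2, a factor induced by blood flow, was at 30.2 and 22.2 CPM for WT males, 52.0 and 53.5 for KO males, 43.2 and 46.7 for WT females, and 34.3 and 25.6 for KO females. Its genotypes were apart in both sexes, with log2 fold changes of 1.01 (SE 0.24, edgeR adjusted p = 0.235) and -0.59 (SE 0.24, adjusted p = 0.535). Sox7 had 0.38 in males and -0.96 in females, and Klf4 had 0.58 and -0.21. Etv2, an early angioblast factor, was too low to test.

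The ligands and co-receptors of the VEGF and angiopoietin systems did not lean one way, with 6 of 12 above 0 in males and 5 of 12 in females (medians 0.01 and -0.03). Flt4, the VEGF receptor of lymphatic and sprouting endothelium, had a log2 fold change of 0.80 in males and one of -0.45 in females, each with an SE of 0.34. Ptprb, the phosphatase that restrains Tek, had 0.63 and -0.20. Angpt2, the angiopoietin that antagonises Tek, had the opposite signs, -0.33 (SE 0.30) and 0.56 (SE 0.30). In edgeR the difference between the sexes had adjusted p values of 0.275 for Flt4, 0.321 for Ptprb and 0.320 for Angpt2.

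Genes of vessel subtypes had both signs. Of 11 arterial genes 7 were above 0 in males and 8 below 0 in females (medians 0.22 and -0.22). Sema3g had 1.59 (SE 0.42) in males and -0.54 (SE 0.41) in females, and the Notch ligand Dll4 had 0.71 and -0.96, while the Notch effector Hey2, which muscle and heart also express, had -0.82 and 0.65. Of 7 venous and adhesion genes 4 were above 0 in males and 4 below 0 in females (medians 0.62 and -0.12), with Aplnr at 0.65 and -0.53, P-selectin (Selp) at 1.55 and -0.25, and the venous factor Nr2f2, also widespread in mesenchyme, at -0.47 and 0.49. Sinusoidal genes had medians of 0.23 and -0.77 over 5 tested, with Stab1 at 0.98 and -0.77, Stab2 at 1.35 and -0.16 and Gpr182 at 0.23 and -0.89. These 9 genes were chosen by the difference between the sexes, so their opposite signs are not separate evidence. That difference had edgeR adjusted p values from 0.243 (Hey2, Sema3g and Stab1) to 0.386 (Gpr182).

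The 6 tested lymphatic genes had medians of 0.05 in males and 0.07 in females, with Prox1 at 0.76 and -0.04, Lyve1 at 0.33 and -0.22 and Reln at -0.10 and 0.84. Ccl21a was listed at 0 in every library. The 8 barrier genes had medians of 0.07 and 0.27, with Slco1c1, a thyroxine carrier of brain vessels, at -0.64 and 0.62, Slc7a5 at 0.83 and -0.26 and Slco1a4 at 0.19 and 1.21. The 6 sprouting genes had medians of -0.11 and -0.11, with Pdgfb at 0.68 and -0.58, Kcne3 at -1.60 and 0.51 and Esm1 at -0.21 and 0.61.

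Capillary genes of fat and muscle, which include the adipocyte genes Cd36 and Fabp4, were the only vascular list whose median was below 0 by more than 1 log2 unit in a sex, at -0.26 in males and -1.14 in females over 7 genes. Rgcc was at 15.5 and 10.4 CPM for WT males, 12.4 and 12.8 for KO males, 14.8 and 44.2 for WT females, and 8.68 and 9.42 for KO females, so that its highest value was in the library richest in adipocyte genes. Gpihbp1, which anchors lipoprotein lipase on capillaries, had log2 fold changes of 0.24 and -0.85, and the factor Tcf15 had 0.38 and -1.14. The summed level of the list was 4903 and 1042 CPM for WT males and 775 and 3545 CPM for WT females, and between 402 and 1032 CPM in the KO libraries. The part of adipocyte content in these values was not tested.

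Pericyte and smooth muscle genes, the wall cells around the endothelium, had medians of 0.28 in males and -0.04 in females over 12 genes, 8 above 0 in males and 8 below 0 in females. Notch3 was at 34.0 and 21.8 CPM for WT males, 76.8 and 33.3 for KO males, 73.7 and 75.7 for WT females, and 43.5 and 56.7 for KO females. Its male groups overlapped and its female groups did not. Pdgfrb had log2 fold changes of 0.86 and -0.05, and Abcc9 had 0.74 and 0.06. Among 8 hypoxia-responsive genes the medians were -0.03 and 0.01, and Ankrd37 had -2.31 (SE 0.38, edgeR adjusted p = 0.184) in males and 0.35 (SE 0.36, adjusted p = 0.707) in females, while Bnip3 had -0.92 and 0.04 and Car9 -0.23 and 0.47.

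**Figure D5:**
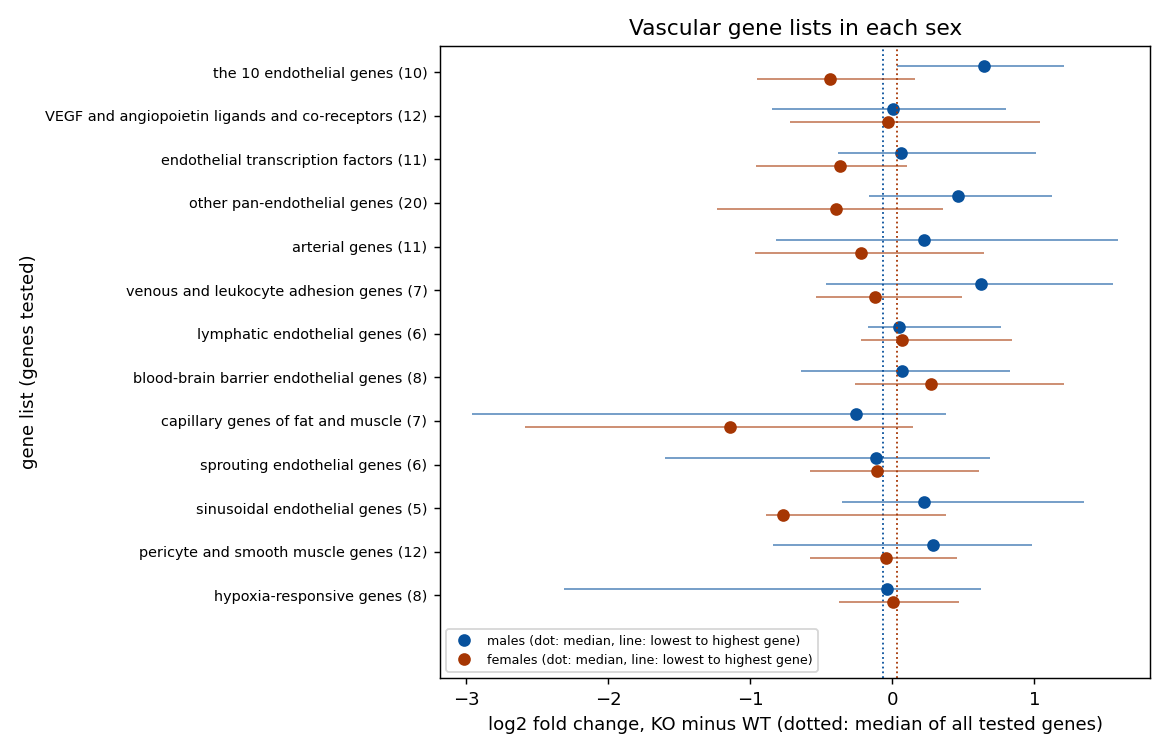
Log2 fold change, KO minus WT (x axis), of the 10 endothelial genes and 12 other vascular lists (rows, with the number of genes tested) in males and females. Dots are list medians, lines run from the lowest to the highest gene, and dotted lines mark the medians of all tested genes, -0.06 in males and 0.03 in females; the medians of the 10 endothelial genes are 0.65 and -0.43.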

How the data were processed

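Frozen spines were crushed, RNA was extracted with TRIzol and stranded poly(A) libraries were made, per the labels' protocols. The authors deposited raw read counts per Entrez gene, 1 column per library. The submitters' processing notes name HISAT2, featureCounts, FastQC 1.0.0, MultiQC 1.0.0 and mm10. Not given in the sources used here are the annotation, the strand setting and how multi-mapped reads were counted. No exon of a member overlapped an exon of another gene in GENCODE M21. Symbols came from RefSeq (GRCm38.p6, 25275 genes) and GENCODE M21 (18), and 1886 genes stayed unnamed.

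Genes were filtered by filterByExpr (minimum count 10), scaled by TMM and tested by edgeR 4.0.16 (R 4.3.3) quasi-likelihood F tests, two-sided, with 4 group means (4 residual degrees of freedom) or sex plus genotype (5). Adjusted p-values are Benjamini-Hochberg over 18104 genes, threshold 0.05. SEs are the log2 fold change over the square root of F. Log2 CPM used a prior count of 2. The script was tested on simulated data with changes planted in male KO only. Those data had less spread between libraries than the real ones, so the test does not measure power here. Replicate pairs were not duplicates, with a chi-square of 112 to 557 per degree of freedom. DESeq2 1.42.0 and limma 3.58.1 (voom), other scalings, no filter, a mitochondrial covariate, a replicate block and left-out libraries were alternatives. Members and lists were chosen with earlier results of these data known. All members were named, and from each other vascular list the 3 genes with the smallest p of the sex-by-genotype difference. The 8 genes nearest in pattern were also named. Lists got counts and medians, no set test.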

Additional observations from a re-analysis of the deposited data

Results flagged for a closer look

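For 5 members every male KO library was above every male WT library and every female KO library below every female WT library, a pattern that 6.09% of all tested genes shared. The female minus male difference of their log2 fold changes was -2.03 for Tie1, -1.94 for Cdh5, -1.33 for Esam, -1.22 for Pecam1 and -1.18 for Erg. The difference itself was tested in edgeR and did not pass for any of them (adjusted p from 0.243 to 0.295 over all tested genes). In DESeq2 it passed for Tie1 and Cdh5, beside 2% of all genes. With the mitochondrial share as a covariate it was -1.10 for Tie1 and -1.41 for Cdh5. Leaving out male WT 1 gave -2.73 for Cdh5 and -1.92 for Pecam1, and leaving out male WT 2 gave -1.43 for Cdh5 and -0.76 for Pecam1.

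No library of a genotype stood apart from the other 3 by the gap test in any member (20 sets of 4 libraries checked, where chance gives about 1 in 20). Each set pooled both sexes, and in WT 9 members had both female libraries above both male libraries. Such a split leaves the test little reach for a single outlying library. Most members also shared their lowest and highest libraries, so the sets are not separate checks, and no conclusion is drawn.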

How the results depend on the processing

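In edgeR the count of called members stayed at 0 for the 4 knockout comparisons under the other scalings, without a filter, with mitochondrial genes left out or as a covariate, with the replicate block and with each library left out. DESeq2 called 2 members for the sex-by-genotype difference (2% of all genes) and 4 for sex in WT (11.6% of all genes). Without male KO 1 or male KO 2, edgeR calls for sex in WT rose over the whole table, Tie1 and Esam among them. The median of the members, in log2 units, ran without 1 library from 0.35 to 0.95 in males, from -0.74 to -0.14 in females, from -1.43 to -0.72 for the difference between the sexes, from -0.16 to 0.32 over both sexes and from 0.60 to 1.21 for sex in WT. Without the adipocyte-rich pair, male WT 1 and female WT 2, it came to 0.998 (males), -0.14 (females) and 0.36 (both sexes). With the mitochondrial share as covariate it was 0.48 for sex in WT, where share and sex cannot be told apart. In males it was 0.37 with this covariate, where share and genotype cannot be fully told apart. With a lone library left in a group, that library is assumed to vary like the others. Of 50 member values (10 genes in 5 comparisons) 17 changed sign under at least 1 setting, none of them called: 8 over both sexes, 7 of Emcn or Cldn5 in the other comparisons, and Kdr and Flt1 in females. Another 6 passed under at least 1 setting. The cause was not tested.

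Deviations of same-numbered libraries correlated from -0.53 (male KO with female KO) to 0.18 (male WT with female KO), so the numbers gave no common pairing. Male WT with female WT had -0.36. A negative value means that library 1 of a group deviated in the direction of library 2 of the other. The replicate block does not model such crossed deviations, and their source was not tested. With the replicate block the median was 0.65 in males, -0.44 in females, -1.11 for the difference between the sexes, 0.10 over both sexes and 0.95 for sex in WT. With 2 libraries per group the spread between libraries, not depth, limits these comparisons. Over all tested genes DESeq2 called 481 in males, 144 in females, 362 for the difference between the sexes, 141 over both sexes and 2099 for sex in WT, where edgeR called 0, 0, 0, 0 and 1. Without a filter edgeR called 39 in males, 1 for the difference between the sexes and 629 for sex in WT. With the mitochondrial covariate it called 2 in females and 43 for sex in WT. Without female WT 2 it called 33 in females, 9 for the difference and 30 for sex in WT, and without the adipocyte-rich pair 24 in females, 1 for the difference and 4 for sex in WT. For sex in WT it called 1735 without male KO 1, 1671 without male KO 2, 5 without either female KO library, 2 without male WT 2 and 2 with the block, and voom called 2. The same 8 genes were nearest with a prior count of 0.5.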
